A study of Rattus norvegicus with 24 samples.

Results

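The genes described here are 10 genes that hold epithelial cells together or build their keratin skeleton, namely Cldn3, Cldn4, Cldn7, Cldn18, Ocln, Tjp1, Cdh1, Krt8, Krt18 and Krt19. They were found by matching the accession of each array probe to a gene symbol, which gave 11 of 30367 probes and 10 of 15443 named genes. Tjp1 had 2 probes and each of the other 9 genes had 1. Lung RNA came from 24 Fischer-344 rats of 7 to 8 weeks of age at the start. A control group breathed filtered clean air, and the other groups inhaled hexanal, an aldehyde and indoor irritant, at 600, 1000 or 1500 ppm. Each group had 6 rats, 3 males and 3 females, and no genetic modification is given for any of them. The paper describes nose-only exposure for 4 weeks at 4 h per day on 5 days per week and doses in ppm, whereas the treatment protocol of the labels has 5 weeks and concentrations of 600, 1000 and 1500 mg/m3. Doses are given here in ppm.

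Epithelial cells of airways and alveoli are sealed by tight junctions. Claudins and occludin are the membrane proteins of that seal, and the scaffold protein ZO-1, encoded by Tjp1, ties them to actin. E-cadherin, encoded by Cdh1, forms the adherens junction below the seal. Keratins pair as a type II and a type I chain into filaments, and Krt8 with Krt18 or Krt19 makes the network of simple epithelia such as the lung lining.

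Each rat was measured on 1 one-colour Agilent rat array, in which RNA is labeled with Cy3 and hybridized alone. A level is the log2 spot signal minus the log2 of the 75th percentile of the same array, so that 0 is the brightness of that percentile, and levels of different genes are not set against each other because probes differ in brightness for reasons other than RNA amount. The 75th percentile of the signal lay between 1700.86 and 3132.89, and between 70.7% and 81.83% of probes were well above background. All 11 probes were well above background on all 24 arrays, with no value missing, and all 10 genes passed the filter on dim probes. No probe was saturated. Precision is set by the number of arrays. Of the defining lung markers, 6 of 7 alveolar type I genes and all 6 alveolar type II genes named on the array passed the filter. The arrays lay on 6 slides of 4, and each slide held 1 sex. Control rats shared slides with 600 ppm rats only, so that slide and dose are partly entangled, and sex and slide cannot be told apart.

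Cldn4 rose at 1000 ppm to 1.59-fold of control (95% interval 1.23 to 2.05, n = 6 rats per group). It was the only member called at any dose by the rule of the methods, a fold change of at least 1.5 with an unadjusted p under 0.05. Krt18 passed the unadjusted test at 1000 and 1500 ppm with rises of 1.21-fold and 1.16-fold, and Krt19 passed it at 600 ppm with 1.30-fold. No member passed after Benjamini-Hochberg adjustment over all 21253 features tested in limma. In a piece of lung, more cells of a type and more RNA per cell cannot be told apart.

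The members called were 0 of 10 at 600 ppm, 1 of 10 at 1000 ppm and 0 of 10 at 1500 ppm, against 0.616%, 1.64% and 1.22% of all features. Under an unadjusted p of 0.05 there was 1 higher member at 600 ppm, 2 at 1000 ppm and 2 at 1500 ppm, and no lower member. The shares of all features under this p and higher were 1.87%, 5.34% and 3.91%, and the shares lower were 2.46%, 3.65% and 3.06%. After adjustment the counts were 0 members at each dose, against 0%, 0.0188% and 0.00471% of all features. By the methods' t-test there were also 1, 2 and 2 members under an unadjusted p of 0.05. In sign alone, 9 members were higher than control and 1 lower at 600 ppm, and 8 were higher and 2 lower at each of the other doses. The median log2 difference over the 10 members was 0.13, 0.19 and 0.07, where the median over all features was 0.00, 0.00 and 0.01. The 3 comparisons share their control rats and are not independent. The plot of levels by rat shows all 10 members.

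**Figure D1:**
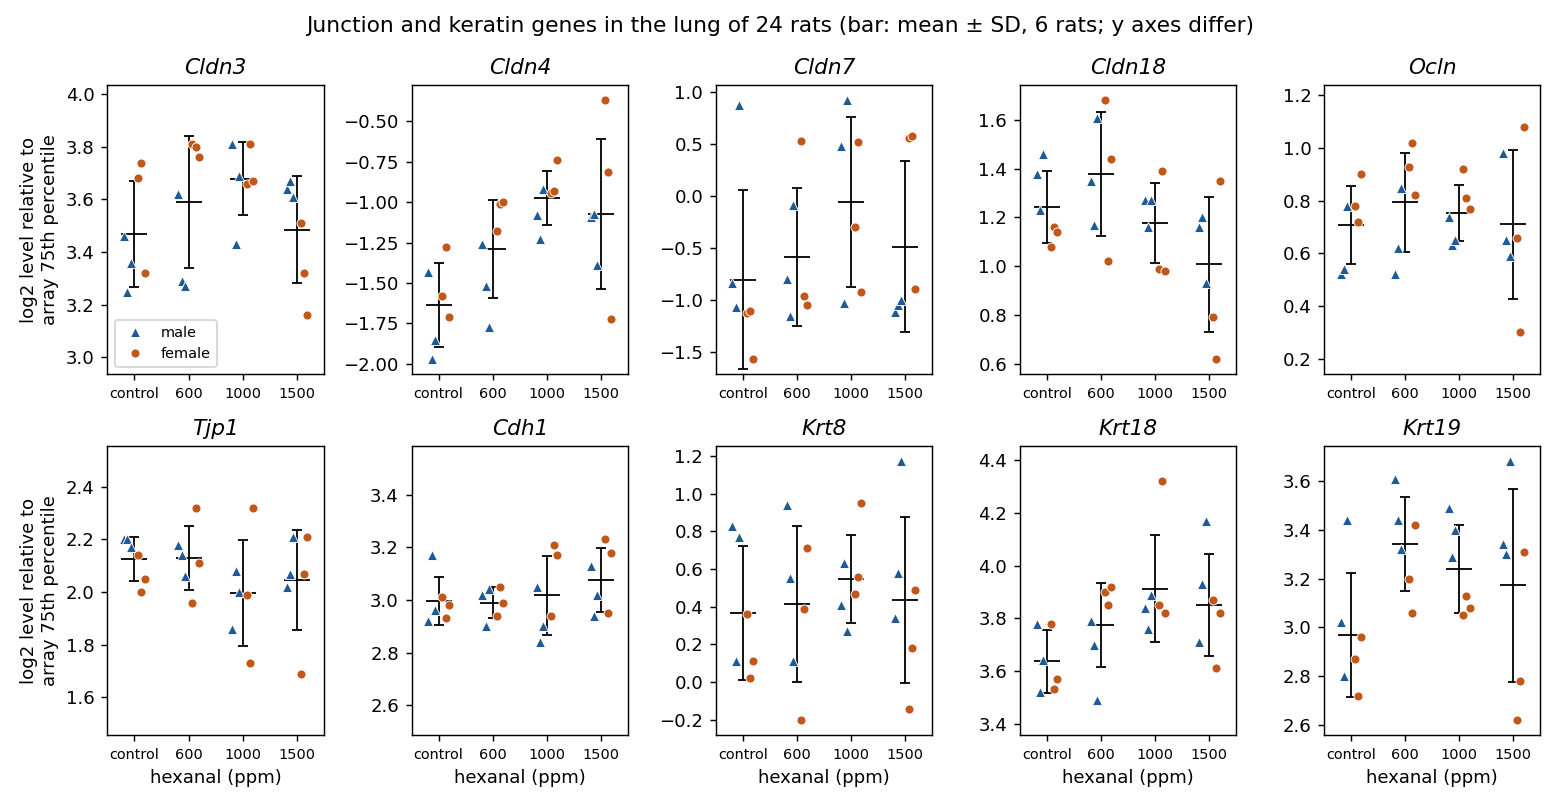
Level of each of the 10 genes in the lung of each rat (y axis, log2 relative to the 75th percentile of the array; scales differ between panels) by group (x axis, control and hexanal in ppm); triangles are males, circles are females, and bars are the mean ± SD of 6 rats. All 6 Cldn4 values at 1000 ppm, from -1.23 to -0.74, lie above the highest control value of -1.28, while the rats of every group spread over more than 1.5 log2 units in Cldn7.

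Among the claudins, Cldn4, a sealing claudin that lowers sodium permeability, lay in controls between -1.97 and -1.28 (median -1.64). The 600 ppm rats lay between -1.77 and -1.0 (median -1.22), the 1000 ppm rats between -1.23 and -0.74 (median -0.93) and the 1500 ppm rats between -1.72 and -0.37 (median -1.08). At 600 ppm 4 of 6 rats were above every control rat, at 1000 ppm 6 of 6 were, and at 1500 ppm 4 of 6 were. The groups did not overlap at 1000 ppm, a pattern found in the upward direction in 0.26% of features with a value in every rat of both groups. The log2 difference from control was 0.35 ± 0.18 (SE) at 600 ppm, 0.66 ± 0.18 at 1000 ppm and 0.56 ± 0.18 at 1500 ppm. Two-sided exact permutation tests of 6 rats against 6, 1 for each of the 10 genes at each of the 3 doses and unadjusted, gave 0.0671, 0.00216 and 0.026 for Cldn4, beside limma p of 0.0645, 0.00112 and 0.00457. The smallest p that 6 rats against 6 allow is 0.00216. The limma p adjusted over all features was 0.997, 0.515 and 0.461.

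The Cldn4 rise was similar in size in each sex at 1000 and 1500 ppm. At 1000 ppm it was 0.65 in females and 0.68 in males, and at 1500 ppm 0.55 and 0.57 (SE 0.24 each, 3 rats against 3). At 600 ppm it was 0.46 in females and 0.24 in males. The female minus male differences were 0.22 ± 0.34, -0.03 ± 0.34 and -0.02 ± 0.34 at 600, 1000 and 1500 ppm. Their intervals are wide enough to hide a difference as large as the rise itself. Within slides, the 1 rat at 600 ppm was above the mean of the 3 control rats by 0.50 on slide A and by 0.34 on slide D. The 1000 ppm rats were above the 600 ppm rats by 0.49 on slide B and by 0.07 on slide E, and the 1500 ppm rats differed from the 1 rat at 1000 ppm by -0.27 on slide C and -0.23 on slide F. With slide as a fixed block the difference was 0.42 at 600 ppm, 0.70 at 1000 ppm and 0.45 at 1500 ppm, and the limma p was under 0.05 at 1000 ppm only. No slide held control rats with 1000 or 1500 ppm rats, so those block estimates rest on a chain of slides.

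Cldn3, a sealing claudin found with Cldn4 in many epithelia, lay in controls between 3.25 and 3.74 (median 3.41), at 600 ppm between 3.27 and 3.81 (median 3.69), at 1000 ppm between 3.43 and 3.81 (median 3.68) and at 1500 ppm between 3.16 and 3.67 (median 3.56). The groups overlapped at every dose. Its log2 difference from control was 0.12 at 600 ppm, 0.21 at 1000 ppm and 0.02 at 1500 ppm (SE 0.12; exact permutation p 0.381, 0.0649 and 0.874). At 1500 ppm the difference from control had opposite signs in the sexes, with -0.25 in females and 0.28 in males, a female minus male difference of -0.53 ± 0.17 (limma adjusted p = 0.0877). It missed the unadjusted threshold with slide as a fixed block (-0.72 ± 0.41) and with normexp background correction (-0.39 ± 0.20). The 3 males at 1500 ppm lay at 3.61 to 3.67 and the 3 females at 3.16 to 3.51, whereas control males lay at 3.25 to 3.46 and control females at 3.32 to 3.74.

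Cldn7, which is found at the lateral membrane as well as in the tight junction, was the most variable member. Its pooled SD within groups was 0.80 log2 units, at the 97th percentile of all features, where the median feature had 0.23. Controls lay between -1.57 and 0.88 (median -1.09), with 5 rats at -0.84 or below and control rat 3 at 0.88. The 600 ppm rats lay between -1.16 and 0.53 (median -0.88), the 1000 ppm rats between -1.03 and 0.92 (median 0.09) and the 1500 ppm rats between -1.12 and 0.58 (median -0.95). The widest gap in the ordered values ran from -0.09 to 0.48, with 17 rats at or below it and 7 above it. Above it were 1 of the controls and 1, 3 and 2 of the rats at 600, 1000 and 1500 ppm.

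The mean Cldn7 difference from control was 0.22 at 600 ppm, 0.75 at 1000 ppm and 0.32 at 1500 ppm (SE 0.44), and none passed the unadjusted limma test or the exact permutation test (p = 0.649, 0.143 and 0.545). The 95% interval at 1000 ppm ran from 0.897-fold to 3.16-fold. Without control rat 3 the 1000 ppm difference was 1.09 and passed the unadjusted limma test (adjusted p = 0.398). The 1000 ppm difference also passed without 1000 ppm rat 12 (0.95), with array weights (0.93) and in the value table without scaling (0.86). The call thus depends on single rats and on the processing. At 1500 ppm the female minus male difference of the effect was 2.06 ± 0.83 (limma adjusted p = 0.161). It no longer passed the unadjusted limma test without control rat 3 (1.45), 1500 ppm rat 36 (1.82) or 1500 ppm rat 37 (1.81), and it was 6.01 ± 1.77 with slide as a fixed block. No slide held control rats with 1500 ppm rats, so this block estimate rests on a chain of slides. On slides A, C, D and F that chain passes through 1 rat at a dose.

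Cldn18, whose lung isoform is a main claudin of alveolar epithelium, was the claudin with a mean below control at 1500 ppm, a difference that did not pass the test. Controls lay between 1.08 and 1.46 (median 1.19), 600 ppm rats between 1.02 and 1.68 (median 1.39), 1000 ppm rats between 0.98 and 1.39 (median 1.21) and 1500 ppm rats between 0.62 and 1.35 (median 1.05). At 1500 ppm 3 of 6 rats were below every control rat, and 3 overlapped the controls. The log2 difference from control was 0.14, -0.07 and -0.23 at the 3 doses (SE 0.12; exact permutation p 0.277, 0.481 and 0.106). With slide as a fixed block the sign at 1500 ppm turned (0.05 ± 0.30).

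The promoter windows of Cldn3 and Cldn7 are shown because these are the members whose response to 1500 ppm differed between the sexes under an unadjusted limma p of 0.05. This count, 2 of 10, was near the share of 20.2% of all features. The windows are the 250 bases before the RefSeq start of each gene in the rat assembly GRCr8, 5′ to 3′ on the strand of the gene, with capitals at every match of the motifs searched. The Cldn3 window lies at chr12:27346548-27346797 on the minus strand and the Cldn7 window at chr10:55188420-55188669 on the plus strand.
Cldn3: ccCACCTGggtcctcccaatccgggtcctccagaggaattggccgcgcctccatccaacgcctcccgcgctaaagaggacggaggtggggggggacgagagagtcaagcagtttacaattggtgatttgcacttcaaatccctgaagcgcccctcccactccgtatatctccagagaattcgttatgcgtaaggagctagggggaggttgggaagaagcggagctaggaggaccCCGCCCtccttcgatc
Cldn7: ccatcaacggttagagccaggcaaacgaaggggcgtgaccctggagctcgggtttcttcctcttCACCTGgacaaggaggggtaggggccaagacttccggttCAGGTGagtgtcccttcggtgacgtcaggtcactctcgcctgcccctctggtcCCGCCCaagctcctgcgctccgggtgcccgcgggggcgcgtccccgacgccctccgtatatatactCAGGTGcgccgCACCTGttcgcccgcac

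The motifs searched, on either strand and in 250 bases before to 50 after the start, were CACCTG (the E-box of SNAI and ZEB repressors), ACCGGTT (grainyhead-like factors), GGGCGG (SP and KLF factors), TGTTTAC (FOXA) and GGAATG (TEAD). No match overlapped a match of another motif in these windows. RefSeq windows were at hand for 7 of the 10 members, namely Cldn3, Cldn7, Cldn18, Ocln, Tjp1, Krt8 and Krt18. CACCTG was in 4 of these 7 and in 18.8% of all 33469 windows, and GGGCGG was in 4 of 7 and in 33.1%. The other motifs were in none of the 7, against 1.0% of all windows for ACCGGTT, 3.8% for TGTTTAC and 14.2% for GGAATG. Cldn7 held CACCTG 5 times in the 300 bases, of which 1 spans the start and is not complete in the line above, and 0.012% of all windows held it as often. These are matches of letters, not measured binding.

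Ocln, the occludin gene, stayed near its control level at all doses. Controls lay between 0.52 and 0.90 (median 0.75), 600 ppm rats between 0.52 and 1.02 (median 0.83), 1000 ppm rats between 0.63 and 0.92 (median 0.75) and 1500 ppm rats between 0.30 and 1.08 (median 0.66). The differences were 0.08, 0.04 and 0.00 (SE 0.11), and the 95% interval at 1500 ppm ran from 0.854-fold to 1.17-fold.

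Tjp1, the ZO-1 gene, was measured with 10 repeated spots of its brighter probe. The SD of log2 signal over the repeated spots of an array was between 0.03 and 0.06, against a pooled SD of 0.16 between rats of a group. Controls lay between 2.00 and 2.20 (median 2.16), 600 ppm rats between 1.96 and 2.32 (median 2.12), 1000 ppm rats between 1.73 and 2.32 (median 2.00) and 1500 ppm rats between 1.69 and 2.21 (median 2.07). At 1000 ppm 3 of 6 rats were below every control rat and 1 above. The differences were 0.00, -0.13 and -0.08 (SE 0.09; exact permutation p 0.965, 0.177 and 0.409). The second Tjp1 probe, which was dimmer, gave 0.13, -0.04 and 0.16 (SE 0.12), so that the probes differed in sign at 1500 ppm with neither past the unadjusted limma test.

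Cdh1, the E-cadherin gene, was the steadiest member. Its pooled SD within groups was 0.11, at the 12.5th percentile of all features. Controls lay between 2.92 and 3.17 (median 2.97), 600 ppm rats between 2.90 and 3.05 (median 3.00), 1000 ppm rats between 2.84 and 3.21 (median 2.99) and 1500 ppm rats between 2.94 and 3.23 (median 3.07). The differences were -0.01, 0.02 and 0.08 (SE 0.07), and the 95% interval at 1500 ppm, 0.955-fold to 1.17-fold, holds no change as large as 1.5-fold.

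Of the keratins, Krt18, the type I partner of Krt8, was higher with exposure by small amounts. Controls lay between 3.52 and 3.78 (median 3.60), 600 ppm rats between 3.49 and 3.92 (median 3.82), 1000 ppm rats between 3.76 and 4.32 (median 3.85) and 1500 ppm rats between 3.61 and 4.17 (median 3.85). At 1000 ppm 5 of 6 rats were above every control rat, and at 1500 ppm 4 of 6 were. The log2 difference was 0.14 ± 0.10 at 600 ppm, 0.28 ± 0.10 at 1000 ppm and 0.22 ± 0.10 at 1500 ppm (limma adjusted p 0.997, 0.515 and 0.7). Exact permutation tests gave 0.126, 0.00649 and 0.0368, beside unadjusted limma p of 0.177, 0.0107 and 0.0413. The 1500 ppm result is close to the threshold, and 8 of the 24 fits that left out 1 rat put its p above 0.05, with differences between 0.15 and 0.27 over the 24 fits. The lowest came without 1500 ppm rat 18. It also missed the threshold with slide as a fixed block (0.41 ± 0.21), in the value table without scaling (0.15 ± 0.15) and with normexp (0.17 ± 0.13), and normexp put the 1000 ppm result above it too (0.24 ± 0.13).

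Krt19, a type I keratin of airway and simple epithelium, lay in controls between 2.72 and 3.44 (median 2.92). The 600 ppm rats lay between 3.06 and 3.61 (median 3.37), the 1000 ppm rats between 3.05 and 3.49 (median 3.21) and the 1500 ppm rats between 2.62 and 3.68 (median 3.31). All 6 rats at 600 ppm and all 6 at 1000 ppm were above the control mean, but control rat 3 at 3.44 overlapped them. The log2 difference was 0.37 ± 0.15 at 600 ppm, 0.27 ± 0.15 at 1000 ppm and 0.20 ± 0.15 at 1500 ppm (exact permutation p 0.0216, 0.0628 and 0.299; limma adjusted p 0.997, 0.614 and 0.822). The 600 ppm difference no longer passed the unadjusted limma test without control rat 22 (0.32), without 600 ppm rat 6 (0.32) or in the deposited table without scaling (0.45).

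Krt8, the type II keratin that both others pair with, varied widely and showed no called change. It was read from 10 spots with an SD of 0.04 to 0.08 on an array, against 0.37 between rats of a group. Controls lay between 0.02 and 0.83 (median 0.24), 600 ppm rats between -0.20 and 0.94 (median 0.47), 1000 ppm rats between 0.27 and 0.95 (median 0.51) and 1500 ppm rats between -0.14 and 1.17 (median 0.41). The differences were 0.05, 0.18 and 0.07 (SE 0.20), and the 95% interval at 1000 ppm ran from 0.844-fold to 1.52-fold, so that a rise of the size seen in Krt18 was not detectable in Krt8.

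The promoter windows of Krt8 and Krt18 are shown because these filament partners are neighbours whose starts lie 25829 bases apart on chromosome 7 of GRCr8. The Krt8 window lies at chr7:135010340-135010589 on the minus strand and the Krt18 window at chr7:135035918-135036167 on the plus strand, with capitals as above.
Krt8: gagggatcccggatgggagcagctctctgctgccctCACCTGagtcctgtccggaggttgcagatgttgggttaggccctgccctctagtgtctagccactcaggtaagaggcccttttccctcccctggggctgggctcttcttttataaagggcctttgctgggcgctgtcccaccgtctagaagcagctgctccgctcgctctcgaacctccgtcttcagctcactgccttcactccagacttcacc
Krt18: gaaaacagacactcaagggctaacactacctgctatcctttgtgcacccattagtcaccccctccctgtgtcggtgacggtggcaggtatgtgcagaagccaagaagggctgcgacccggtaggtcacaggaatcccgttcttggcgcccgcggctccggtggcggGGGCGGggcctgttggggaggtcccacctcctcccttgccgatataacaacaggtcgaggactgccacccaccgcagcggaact

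The Krt8 window held CACCTG, with its first base at position -214 from the start, and no GGGCGG. The Krt18 window held GGGCGG, with its first base at position -84, and no CACCTG.

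**Figure D2:**
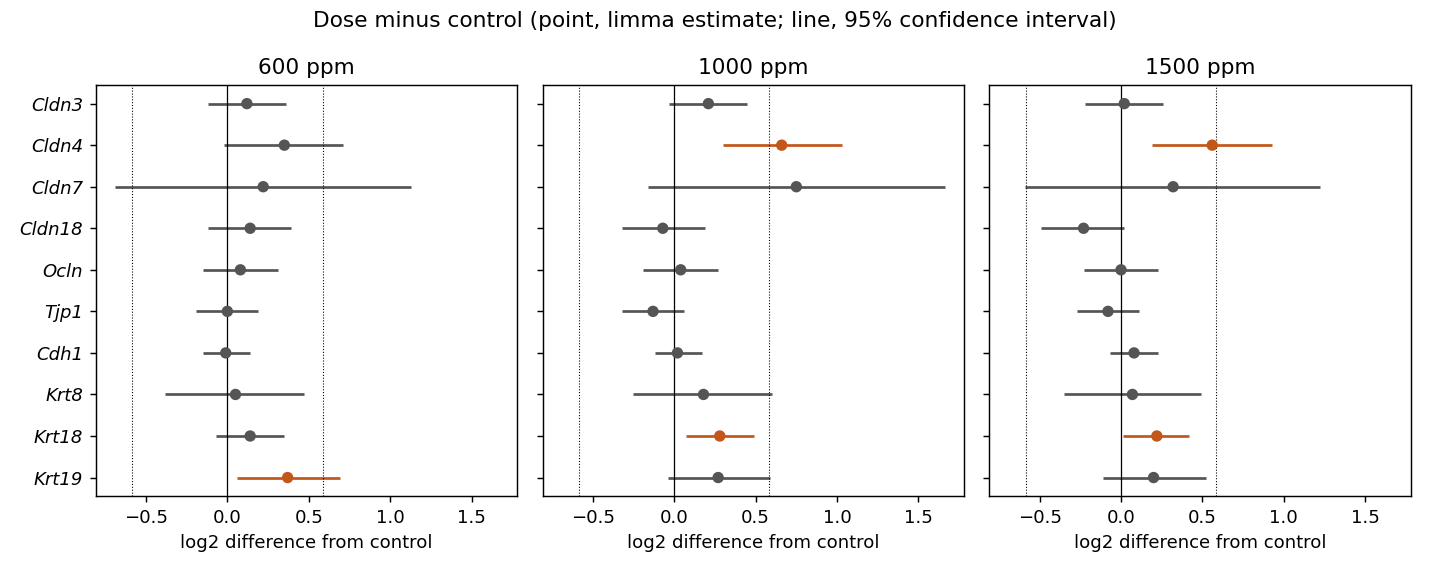
Log2 difference of each dose from control (x axis) for the 10 genes (y axis), 1 panel per dose; points are limma estimates over 6 rats per group, lines are 95% confidence intervals, orange marks an unadjusted p under 0.05 and dotted lines mark 1.5-fold. Cldn4 at 1000 ppm is the only orange point beyond 1.5-fold, and the Cdh1, Tjp1 and Ocln intervals lie inside the dotted lines at all 3 doses.

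A slope on dose was tested in all 24 rats. It passed the unadjusted limma test in 2 of 10 members, against 8.49% of all features. Cldn4 rose by 0.41 ± 0.12 log2 units per 1000 ppm (limma adjusted p = 0.322) and Krt18 by 0.16 ± 0.06 (adjusted p = 0.518). The Cldn18 slope was -0.17 ± 0.08 (adjusted p = 0.593) and missed the unadjusted threshold. With slide as a fixed block the slopes of Cldn4 and Krt18 were 0.34 ± 0.28 and 0.28 ± 0.14, and neither passed, while the Cldn18 slope turned to 0.06 ± 0.20. The F test over the 4 groups passed for 2 of 10 members, Cldn4 (adjusted p = 0.61) and Cldn18 (adjusted p = 0.797), against 6.11% of all features.

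A sex difference in the response to dose passed an unadjusted limma p of 0.05 in 0 of 10 members at 600 ppm, 0 of 10 at 1000 ppm and 2 of 10 at 1500 ppm, Cldn3 and Cldn7, and in no member after adjustment. Each slide held 1 sex, and with slide as a fixed block the female minus male difference at 1500 ppm no longer passed in Cldn3 (-0.72 ± 0.41), was 6.01 ± 1.77 in Cldn7 (limma adjusted p = 0.0969) and newly passed in Krt8 (-2.16 ± 0.78, limma adjusted p = 0.154). At 1500 ppm 20.2% of all features passed unadjusted and 5.03% after adjustment, so that the members' count was near the background. The fit with 8 groups rests on 3 rats per dose and sex, and its block estimates at 1500 ppm rest on a chain of slides.

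The variation between rats of the same dose and sex was compared across genes, after the mean of each dose and sex was taken off. Of 45 pairs of members, 4 passed a permutation test after Benjamini-Hochberg adjustment over the 45 pairs. The shuffles moved values among all rats, without regard to dose, sex or slide. Taking off the mean of each dose and sex leaves fewer independent values than rats. The permutation p are therefore likely too low, and the count of 4 may be too high. Of the 4 pairs, Cldn7 with the brighter Tjp1 probe was inverse. It was inverse in rank too, but the rank permutation test missed 0.05 after adjustment (adjusted p = 0.0564). The pooled r of this pair is not given because the Cldn7 levels fall into separate runs of values. The other 3 were positive. Cldn3 and Cldn4 varied together (Pearson r = 0.68, permutation p = 0.00022, adjusted p = 0.0099; Spearman rho = 0.70, p = 0.00021; r = 0.68 without the 2 farthest rats, 0.73 in males, 0.69 in females). Krt8 and Krt19 did too (r = 0.65, permutation p = 0.0006, adjusted p = 0.0135; rho = 0.64, p = 0.00107; 0.65 without the 2 farthest, 0.71 in males, 0.58 in females). The third pair was Tjp1 and Krt8 (r = 0.60, permutation p = 0.00157, adjusted p = 0.0208; rho = 0.67, p = 0.00044; 0.55 without the 2 farthest, 0.62 in males, 0.71 in females). These 3 stayed above 0 with slide means also removed, at 0.69, 0.75 and 0.50. The pairs with Tjp1 used its brighter probe only, and whether they hold for its second probe was not tested. Krt8 and its partner Krt18 had r = 0.40 (permutation p = 0.0517, adjusted p = 0.193; rho = 0.41, p = 0.0488; 0.35 without the 2 farthest), with 0.83 in males and -0.06 in females. The median r over all 45 pairs was 0.00, so that the 10 genes did not vary as 1 block.

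Many but not all markers of several cell types that a lung sample can hold were also higher with exposure, most at 1000 ppm, where the Cldn4 mean was highest. Of 5 club cell genes, markers of secretory airway cells, 4 were higher and 2 were called, with a median log2 difference of 0.89. The 1 club gene not higher was Scgb1a1, with -0.16, -0.03 and -0.15 at 600, 1000 and 1500 ppm, none past the unadjusted limma test. All 4 ciliated cell genes were higher and 1 was called (median 0.52). Of the heart muscle genes, 8 of 8 were higher and 4 called (median 2.25), and of the smooth muscle genes 6 of 6 were higher and 1 called (median 0.40). Of all features, 1.64% were called at 1000 ppm in either direction. At this dose 0 leukocyte genes were higher and 4 lower (median -0.10). The endothelial list had 1 higher and 4 lower (median -0.21), and the alveolar type II list 1 and 5 (median -0.05). The alveolar type I list had 5 higher and 1 lower, the fibroblast list 3 and 3, and the mesothelial list 3 and 0.

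The called club genes were Cyp2f4, a cytochrome P450 of club cells (0.89 ± 0.35, limma adjusted p = 0.515), and Scgb3a1, a secretoglobin (2.95 ± 1.27, adjusted p = 0.517). The called ciliated gene was Dynlrb2, a dynein light chain (0.64 ± 0.27, adjusted p = 0.515), and the called smooth muscle gene was Cnn1, calponin (0.60 ± 0.21, adjusted p = 0.515). The called heart genes were the sarcomere genes Tnni3, Tnnt2 and Actc1 and the calcium pump regulator Sln, with log2 differences of 2.02, 2.48, 1.26 and 3.67 and adjusted p of 0.517, 0.548, 0.515 and 0.515. In lists with no call the lowest F-test p belonged to Hopx, Slc34a2, Krt15, Msln, Tek, Cd3e and Col1a2. Of these, Slc34a2 of alveolar type II cells (-0.29 at 1500 ppm, adjusted p = 0.572), Tek of endothelium (-0.25 at 1000 ppm, adjusted p = 0.535) and Col1a2 of fibroblasts (0.26 at 1500 ppm, adjusted p = 0.606) passed the unadjusted limma test.

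The summed level of the club list, in units of the 75th percentile, was 146 to 233 (median 176) in controls, 147 to 288 (median 193) at 600 ppm, 192 to 264 (median 236) at 1000 ppm and 152 to 308 (median 176) at 1500 ppm. The summed ciliated list was 6.39 to 14.9 (median 8.39), 7.81 to 14.1 (median 10.1), 10.2 to 17.6 (median 13.9) and 6.39 to 17.4 (median 10.5) in the same order. The summed heart muscle list was 3.44 to 36.9 (median 6.71), 5.11 to 61.4 (median 17.6), 8.54 to 128 (median 53) and 3.53 to 130 (median 13.9), with Nppa and Myl3 below the filter, and the smooth muscle list 16 to 25.7, 18.2 to 25.6, 21.6 to 30.9 and 20.5 to 27.4. The basal list, with 2 of 4 genes higher at each dose, was 0.269 to 0.646 in controls and 0.343 to 1.19 at 1000 ppm. The alveolar type I list had medians of 250, 257, 253 and 263 and the type II list 531, 518, 496 and 502. These lists and the basal, mesothelial, endothelial, leukocyte and fibroblast lists had no called gene at any dose. The part of these markers in the Cldn4 result was not tested.

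Within groups, Cldn4 varied with the airway markers. The comparison, added after the levels were seen, set 9 members against 11 marker lists. Each list was taken as the log2 of its summed level, so that its brightest genes weighed most. Of the 99 relations, 10 had an adjusted permutation p under 0.05. The shuffles were those used for the member pairs, so these p are likely too low as well. Cldn4 and the club list had r = 0.85 (permutation p = 1e-05, the smallest the resampling can give, adjusted p = 0.000495; rho = 0.79, p = 1e-05), with 0.72 without the 2 farthest rats, 0.80 in males and 0.87 in females. Cldn4 and the ciliated list had r = 0.71 (permutation p = 0.00011, adjusted p = 0.00218; rho = 0.79, p = 1e-05; 0.77 without the 2 farthest). Cldn4 and the alveolar type I list had r = -0.74 (permutation p = 2e-05, adjusted p = 0.00066; rho = -0.72, p = 0.00015; -0.63 without the 2 farthest). Cldn4 also varied with the heart muscle list (r = 0.65, permutation p = 0.00036, adjusted p = 0.00594; rho = 0.63, p = 0.00109; 0.55 without the 2 farthest) and with the basal list (r = 0.71, permutation p = 6e-05, adjusted p = 0.00148; rho = 0.63, p = 0.00138; 0.52 without the 2 farthest). Cldn3 varied with the club list (r = 0.64, permutation p = 0.00063, adjusted p = 0.0078; rho = 0.61, p = 0.0019; 0.57 without the 2 farthest) and the ciliated list (r = 0.67, permutation p = 0.00045, adjusted p = 0.00636; rho = 0.63, p = 0.00146; 0.57 without the 2 farthest).

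Other members varied inversely with a marker list. For Tjp1 only the brighter probe was used, and its second probe was not set against the lists. Tjp1 and the alveolar type II list had an inverse relation (r = -0.80, permutation p = 1e-05, adjusted p = 0.000495; rho = -0.70, p = 0.00021; -0.68 without the 2 farthest), with -0.90 in females and -0.40 in males, a difference that was not tested. Krt19 had r = -0.57 with the club list (permutation p = 0.0034, adjusted p = 0.0337; rho = -0.51, p = 0.0127; -0.42 without the 2 farthest), with -0.88 in females and -0.05 in males. Its r with the basal list was -0.58 (permutation p = 0.00319, adjusted p = 0.0337; rho = -0.53, p = 0.00855; -0.36 without the 2 farthest). Krt18, which had passed the unadjusted test with exposure, had r = -0.03 with the club list and -0.02 with the ciliated list. Genes of 1 array share its scaling and its piece of tissue.

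**Figure D3:**
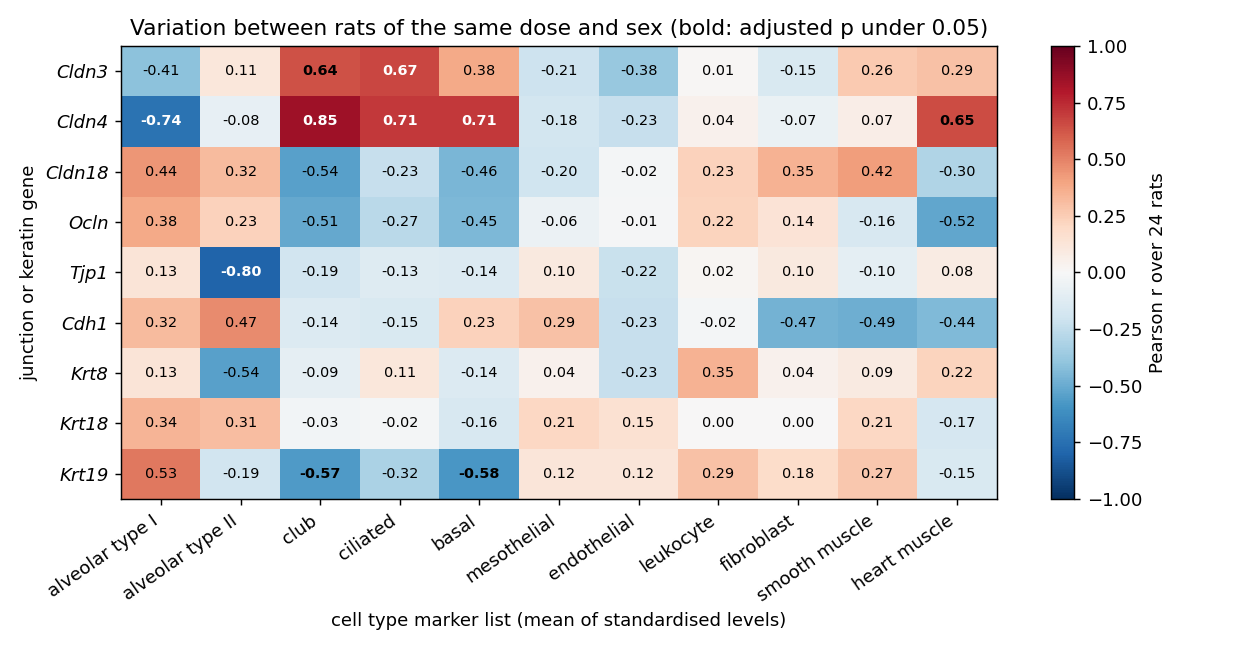
Pearson r over 24 rats between 9 junction and keratin genes (rows) and 11 cell type marker lists (columns), after the mean of each dose and sex was removed. Each list is the log2 of its summed level, although the axis label names a mean of standardised levels. Tjp1 is shown by its brighter probe. Red is positive, blue negative, and bold values had an adjusted permutation p under 0.05. The Cldn4 row holds 5 of the 10 bold values, the strongest of them 0.85 with the club list, while the Krt18 row holds none.

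Of the other junction and filament lists, only the other keratins held a called gene, at 1000 ppm. Of 31 other tight junction genes that passed the filter, none was called at any dose, and 1, 3 and 1 were higher and 0, 0 and 3 lower under an unadjusted p of 0.05 at 600, 1000 and 1500 ppm. The median log2 difference of this list was 0.02, 0.03 and -0.02. Cldn10, a claudin that forms ion pores, was 0.49 ± 0.16 above control at 1000 ppm (limma adjusted p = 0.515) and 0.00 and 0.05 at the other doses. Of 16 other adherens junction genes 0 were called, and Actn1, an actin crosslinker, had the lowest p of the list at 1500 ppm (0.16 ± 0.08, adjusted p = 0.715). No gene was called among 7 desmosome genes, 6 hemidesmosome genes and 7 gap junction genes. Dsg3, a desmosomal cadherin, had -1.0 ± 0.53 at 1500 ppm (adjusted p = 0.746), and Lad1, an anchoring filament protein, 0.19 ± 0.13 at 1000 ppm (adjusted p = 0.692). Gjb6, a gap junction connexin, had 0.54 ± 0.23 at 1500 ppm (adjusted p = 0.683).

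Among 10 other keratin genes, Krt13, a keratin of stratified epithelium, was called at 1000 ppm with a log2 difference of 1.18 ± 0.54 (limma adjusted p = 0.533). Its control level was -7.47 ± 1.29 (SD, n = 6), a spread larger than the difference. Of 14 regulators of the epithelial program, Ovol2, a zinc-finger repressor that keeps cells epithelial, was higher at each dose, by 0.33, 0.38 and 0.31 (SE 0.12; each past the unadjusted limma test; adjusted p 0.997, 0.515 and 0.596). These 3 comparisons use the same control rats. Of the 5 repressors of the epithelial state that passed the filter, Zeb2 was lower at 1000 ppm under the unadjusted test (-0.44 ± 0.18, adjusted p = 0.515), with -0.24 at 600 ppm and -0.26 at 1500 ppm, neither past it.

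**Figure D4:**
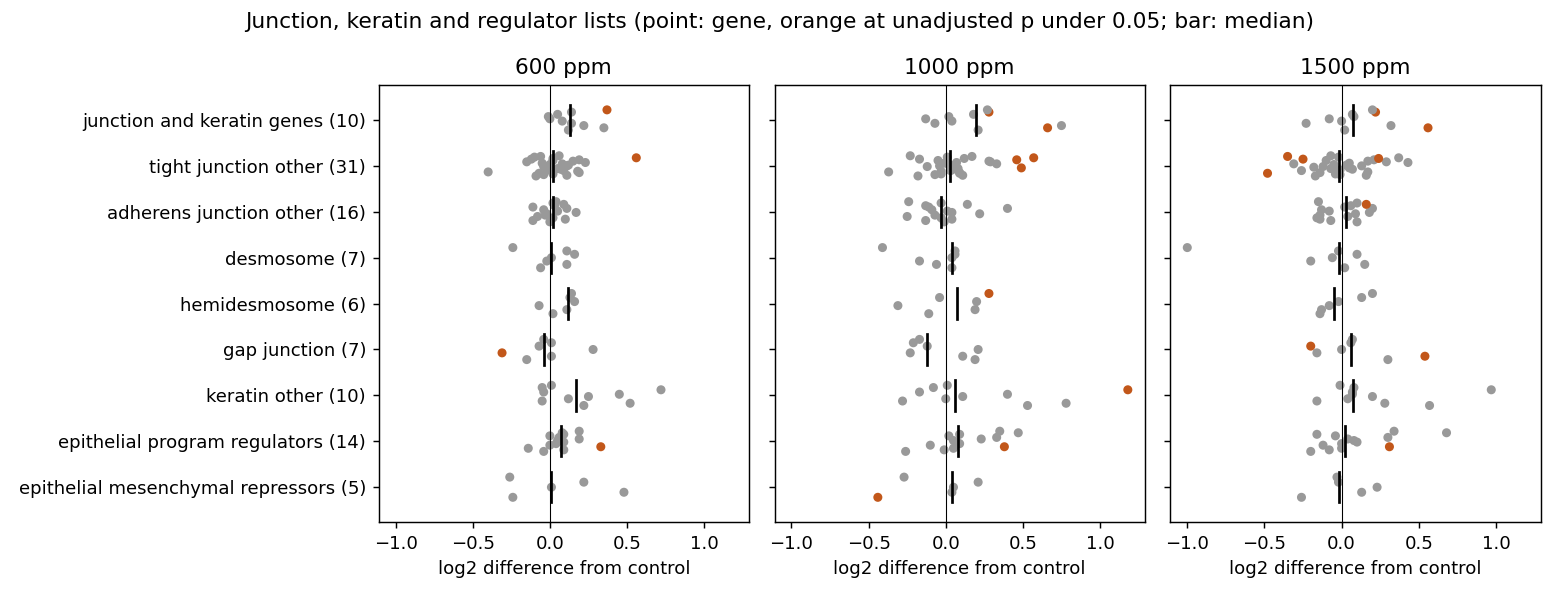
Log2 difference from control (x axis) at each dose for the 10 junction and keratin genes and 8 other lists (rows, number of genes tested in brackets); each point is a gene, orange at an unadjusted p under 0.05, and black bars are medians. The median of the 10 genes is 0.13, 0.19 and 0.07, and the medians of the 31 other tight junction genes stay between -0.02 and 0.03.

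Of 12487 other named genes, those whose levels over the 24 rats were most like the mean of the 10 standardised members were Slirp (r = 0.76), a mitochondrial RNA-binding protein gene, Kdf1 (0.73), a keratinocyte differentiation factor, Mien1 (0.71), Ssr4 (0.71), of the translocon of the endoplasmic reticulum, and Cox7a2 (0.70), a cytochrome c oxidase subunit. The members' own r with that mean ran from 0.00 for Tjp1 to 0.76 for Krt18. These values are a description over arrays that share scaling and tissue, with no test.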

How the data were processed

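Lung RNA of 24 rats was measured on Agilent rat arrays. The authors' deposited intensities are one-colour Feature Extraction signals, background-subtracted, with no scaling across arrays; the deposited table of the series held the same intensity for at least 99.69% of probes per array (tolerance 0.001). The mRNA normalization is not given in the sources used here.

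Control spots and outlier flags were removed and the spots of a probe averaged. Probes were named through a RefSeq gene table of GRCr8, 18355 of 30367 probes to 1 symbol. The log2 signal minus the log2 of the 75th percentile of the array was tested. A probe was kept if 5 or more of the 6 arrays of some group had it well above background, with the brightest probe per gene (21253 features, 12497 named). limma 3.58.1 in R 4.3.3 fitted 4 group means, 8 groups of dose and sex, and a slope. Members were called at 1.5-fold and an unadjusted p of 0.05; Benjamini-Hochberg adjustment ran over all features. Permutation tests used all 924 assignments, or 100000 draws for correlations (scipy, numpy). The limma fit was tested on simulated data.

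All members were named; of other lists, called genes or else the gene with the lowest F-test p; and the 5 genes most like the members' mean. Cell marker lists are described by counts. The members and lists were chosen with earlier results of these data known. Alternatives were other background corrections, scalings, filters, array weights, slide blocks, sex as a covariate, pairwise fits, the methods' t-test and leaving out each rat.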

Additional observations from a re-analysis of the deposited data

Results flagged for a closer look

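Of 40 sets of 6 rats (10 genes in 4 groups), 4 had 1 rat whose gap to its nearest neighbour took an unusually large part of the range of the set by Dixon's test, where chance gives about 1 in 20. In Cldn7, control rat 3 lay at 0.88 with the next control at -0.84, a gap of 0.702 of the range. In Krt18, 1000 ppm rat 32 lay at 4.32 with the next at 3.89 (0.768 of the range). In Tjp1, 1500 ppm rat 36 lay at 1.69 with the next at 2.02 (0.635 of the range). The array of rat 36 was the dimmest of the 24, with a 75th percentile of 1700.86, where the next lowest was 2316.65. On it 78.43% of probes were well above background. Whether the dim array bears on the values of rat 36 was not tested. In Cdh1, control rat 2 lay at 3.17 with the next at 3.01 (0.640 of the range). No member differed between the sexes in its dose effect after adjustment in limma (0 of 10 at each dose; 0, 0 and 2 at an unadjusted p under 0.05).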

How the results depend on the processing

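No paired analysis was possible because each rat has a number of its own and the groups share none. Of the recomputed values of single members, 2425 kept their side of the threshold or stayed within the spread between rats, 46 newly passed it, 26 no longer did and 3 moved without a test. In 92 the sign turned, with neither value past the threshold. The Cldn4 difference at 1000 ppm stayed under an unadjusted p of 0.05 in all 13 other settings (0.60 to 0.77) and in all 24 fits without 1 rat (0.60 to 0.74). The count of members under p 0.05 at 600 ppm, 1, was 2 with the array median, slide as a random block, sex as a covariate, or control and 1 dose only, and 0 to 2 without 1 rat. At 1000 ppm the count called, 1, was 2 in the unscaled table and with array weights (1 to 2 without 1 rat, 2 without control rat 3 or 1000 ppm rat 12). The count under p 0.05 at 1000 ppm, 2, was 1 with normexp, 3 with slide as a fixed block and 4 with array weights (2 to 4 without 1 rat, 4 without the same rats). Shifts of a count from 2 to 3 in other settings are not listed. At 1500 ppm the count called, 0, was 0 to 1 without 1 rat, 1 without control rat 1 or 22 or 1500 ppm rat 18 or 38; the count under p 0.05, 2, was 1 with normexp or the unscaled table, 0 with slide as a fixed block and 1 to 2 without 1 rat. The adjusted count of sex differences at 1500 ppm, 0, was 2 with array weights and 0 to 1 without 1 rat (1 without control rat 23). The count with a dose trend, 2, was 1 with normexp or the unscaled table, 0 with the fixed block and 1 to 2 without 1 rat (1 without 1500 ppm rat 18). The count in the 4-group F test, 2, was 1 with normexp, quantile normalization, the unscaled table, no filter or the random block, 0 with the fixed block and 1 to 2 without 1 rat. The cause of these shifts was not tested. Normexp moved the median of all features at 1000 ppm by -0.12 and the unscaled table by 0.11.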
